A study of Mus musculus with 19 samples.

Results

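Regulators of G protein signalling are encoded by the Rgs genes, and 10 of them are described here: Rgs2, Rgs4, Rgs6, Rgs7, Rgs8, Rgs10, Rgs12, Rgs14, Rgs16 and Rgs17. They were taken by exact gene name from the expression tables of mouse hippocampal neurons, which hold 24058 gene names. All 10 names were present, and all 10 passed the filter on low values. RGS proteins bind the activated alpha subunit of a heterotrimeric G protein and speed its hydrolysis of GTP, so that signalling from the receptor ends sooner. In neurons they act on metabotropic receptors for glutamate, acetylcholine, dopamine, opioids and other transmitters, and the subfamilies differ in the domains that sit beside the shared RGS domain.

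The study examined how neuronal activity changes transcripts, DNA methylation and enhancer marks in hippocampal neurons. For RNA-seq, neurons of embryonic day 17 hippocampus from ICR mice were kept for 10 days in vitro. They were left untreated, given tetrodotoxin (TTX), which blocks voltage-gated sodium channels and so silences firing, or given bicuculline with 4-aminopyridine (Bic/4AP) for 3 h, which blocks GABA-A receptors and potassium channels and so drives firing. Each of the 3 groups had 3 RNA-seq libraries. H3K27ac, a histone mark of active promoters and enhancers, was profiled in ICR neurons, in 2 samples without treatment and 2 with Bic/4AP, and H3K4me1, an enhancer mark, in 2 untreated samples. For DNA methylation, C57BL/6 neurons gave 1 bisulfite library per treatment, from cells of the same stage. The duration of TTX, the dose of each agent and whether libraries came from separate cultures are not given in the sources used here. Therefore p-values measure differences among these libraries alone, and that spread may be technical. Such cultures are mixtures, and a lower share of one cell type cannot be told apart from less RNA per cell.

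Library depth moved with treatment: it was 9.68 to 12.6 M reads for TTX, 5.63 to 9.97 M for the untreated libraries and 4.34 to 4.59 M for Bic/4AP. Within each group the deepest library read lower than the shallowest for genes in the highest decile of level (median log2 difference -0.12 for TTX, -0.17 untreated and -0.03 for Bic/4AP) and higher for genes in the fourth decile (0.17, 0.22 and 0.07). The part of this relation in the treatment differences was not tested. Neuron markers fixed for the check summed to 719 to 802 RPKM with TTX, 752 to 898 untreated and 1229 to 1287 with Bic/4AP, with all 11 markers detected. Choroid plexus markers summed to 337 to 503 RPKM in the untreated libraries, against 7.0 to 11 with TTX and 23.8 to 28.9 with Bic/4AP, so the untreated libraries stood apart in this respect. Astrocyte markers summed to 113 to 118 RPKM untreated, 128 to 144 with TTX and 169 to 188 with Bic/4AP, and microglial markers to 7.48 to 11.9 RPKM over all libraries. Oligodendrocyte lineage markers summed to 43.0 to 52.1 RPKM with TTX, 23.0 to 29.7 untreated and 22.2 to 28.7 with Bic/4AP, and vascular and mural markers to 11.1 to 16.4, 10.6 to 11.3 and 4.52 to 8.44. The activity genes Fos and Arc behaved unlike each other with TTX. Fos was at 15.2 ± 1.24 RPKM with TTX, 9.76 ± 2.50 untreated and 185 ± 8.87 with Bic/4AP (SD, n = 3). Arc was at 4.79 ± 0.707, 9.91 ± 1.67 and 61.9 ± 9.99 in the same order. Of 12 activity genes, 8 were called higher with TTX than untreated and 1, Arc, lower, where 40.6% of all genes rose and 23.5% fell. After quantile as well as loess normalization, 6 were higher and 2 lower.

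The promoters of the 6 members whose RNA rose with Bic/4AP are shown here from RefSeq (GRCm38.p6), each from 250 bases before to 50 after the annotated start, 5′ to 3′ on the strand of the gene. Rgs2 lies on the minus strand with its promoter at chr1:144004100-144004399, Rgs4 on the minus strand at chr1:169747593-169747892, Rgs8 on the plus strand with its first start in chr1:153652787-153653086, Rgs10 on the minus strand at chr7:128418123-128418422, Rgs16 on the plus strand at chr1:153740103-153740402 and Rgs17 on the minus strand at chr10:5922351-5922650. Capitals mark matches on either strand. The core of the cyclic AMP response element was searched as TGACG, which reads CGTCA on the opposite strand. The AP-1 motif was searched as TGANTCA. The Egr core was searched as GTGGGCG, which reads CGCCCAC on the opposite strand. None of these motifs contains another.
Rgs2: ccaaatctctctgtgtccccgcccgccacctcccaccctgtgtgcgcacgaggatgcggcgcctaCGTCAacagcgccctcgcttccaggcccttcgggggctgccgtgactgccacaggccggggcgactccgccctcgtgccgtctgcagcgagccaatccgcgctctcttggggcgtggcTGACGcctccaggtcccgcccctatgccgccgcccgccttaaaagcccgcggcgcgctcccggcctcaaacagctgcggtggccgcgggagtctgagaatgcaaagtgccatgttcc
Rgs4: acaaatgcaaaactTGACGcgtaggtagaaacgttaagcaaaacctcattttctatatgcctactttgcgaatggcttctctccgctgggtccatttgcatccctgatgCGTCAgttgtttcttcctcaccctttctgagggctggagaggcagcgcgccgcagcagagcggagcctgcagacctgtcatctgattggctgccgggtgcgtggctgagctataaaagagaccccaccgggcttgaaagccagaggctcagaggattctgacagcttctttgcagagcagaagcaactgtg
Rgs8: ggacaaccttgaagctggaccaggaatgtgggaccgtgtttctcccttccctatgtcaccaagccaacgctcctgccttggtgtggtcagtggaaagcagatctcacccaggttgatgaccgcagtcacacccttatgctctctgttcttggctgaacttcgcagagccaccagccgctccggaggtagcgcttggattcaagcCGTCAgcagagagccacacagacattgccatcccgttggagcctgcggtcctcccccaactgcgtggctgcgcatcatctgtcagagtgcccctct
Rgs10: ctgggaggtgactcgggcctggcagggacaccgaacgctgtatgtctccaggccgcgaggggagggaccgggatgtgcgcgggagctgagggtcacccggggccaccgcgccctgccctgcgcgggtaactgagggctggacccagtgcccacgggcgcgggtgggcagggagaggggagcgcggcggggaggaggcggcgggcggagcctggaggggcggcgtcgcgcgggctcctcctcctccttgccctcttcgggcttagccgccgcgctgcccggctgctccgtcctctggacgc
Rgs16: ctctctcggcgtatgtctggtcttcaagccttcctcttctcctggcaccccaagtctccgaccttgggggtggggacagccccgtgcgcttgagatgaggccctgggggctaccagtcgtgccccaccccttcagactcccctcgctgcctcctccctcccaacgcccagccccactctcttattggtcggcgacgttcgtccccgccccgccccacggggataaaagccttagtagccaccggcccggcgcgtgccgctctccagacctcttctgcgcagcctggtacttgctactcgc
Rgs17: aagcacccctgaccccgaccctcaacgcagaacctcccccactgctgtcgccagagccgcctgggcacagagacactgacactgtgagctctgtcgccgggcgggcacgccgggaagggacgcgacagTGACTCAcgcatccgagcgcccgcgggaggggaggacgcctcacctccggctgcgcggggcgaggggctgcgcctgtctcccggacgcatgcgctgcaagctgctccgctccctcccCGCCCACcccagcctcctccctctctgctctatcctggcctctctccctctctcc
The core TGACG stood at 2 positions in the Rgs2 promoter, -185 and -67 from the start, at 2 in that of Rgs4, -236 and -141, and at 1 in that of Rgs8, -46. It was also found at the second start of Rgs12, in 4 of the 12 promoters of members in the table, while 20.8% of 32851 RefSeq promoters of this length hold it. The AP-1 motif was matched in the promoter of Rgs17, at -122, and at the second start of Rgs12, against 7.81% of all promoters. The Egr core was matched at Rgs17, at -5, and at Rgs6, against 7.97% of all promoters, and the E-box CACGTG at Rgs7, against 7.15%. The serum response element was in none of the 12, and in 1.63% of all promoters. The Rgs10 and Rgs16 promoters held no match to any of the 5 motifs. These are matches of letters and say nothing about binding.

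With 3 h of Bic/4AP, 6 of the 10 genes rose against untreated neurons (Rgs2, Rgs4, Rgs8, Rgs10, Rgs16 and Rgs17), 1 fell (Rgs14), and Rgs6, Rgs7 and Rgs12 did not pass. Over all 14801 genes tested, 29.6% rose and 42.5% fell, and the 3 libraries of one group lay apart from the 3 of the other for 71.3%. The groups did not overlap for the 7 members that passed. Groups lay apart for 69.6% of genes in TTX against untreated and 81.5% in Bic/4AP against TTX. With TTX, 5 members rose (Rgs6, Rgs8, Rgs10, Rgs12 and Rgs16) and 3 fell (Rgs2, Rgs4 and Rgs7), where 40.6% of all genes rose and 23.5% fell. In Bic/4AP against TTX, 6 rose (Rgs2, Rgs4, Rgs7, Rgs10, Rgs16 and Rgs17) and 3 fell (Rgs6, Rgs12 and Rgs14), where 23.7% of all genes rose and 53.1% fell. After quantile as well as loess normalization, 8 members were called higher and 2 lower in Bic/4AP against untreated, and 7 and 1 in Bic/4AP against TTX. With TTX against untreated, 5 were called higher under both, and 3 lower after quantile and 4 after loess normalization. The split of all genes under these normalizations is given further below. The 3 comparisons share libraries, so they are not independent of each other. A gene passed at an adjusted p of 0.05 (limma, Benjamini-Hochberg over all genes) on log2(RPKM + 1), a scale that understates changes of low genes.

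Log2 differences below are relative to the median of all genes, which was -0.12 for Bic/4AP against untreated, 0.13 for TTX against untreated and -0.33 for Bic/4AP against TTX as deposited, while the calls use the deposited scale. On that relative scale the median of the 10 members was 0.83 for Bic/4AP against untreated, 0.04 for TTX against untreated and 0.65 for Bic/4AP against TTX. The median also depended on level. For Bic/4AP against untreated it was 0.57 in the highest decile of genes, which holds Rgs2, Rgs4 and Rgs10, and -0.42 in the fourth decile, which holds Rgs14. The 11 neuron markers had a median of 0.72 in the same comparison, with 10 of them called higher. The part of level, depth and cell makeup in the members' differences was not tested.

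**Figure D1:**
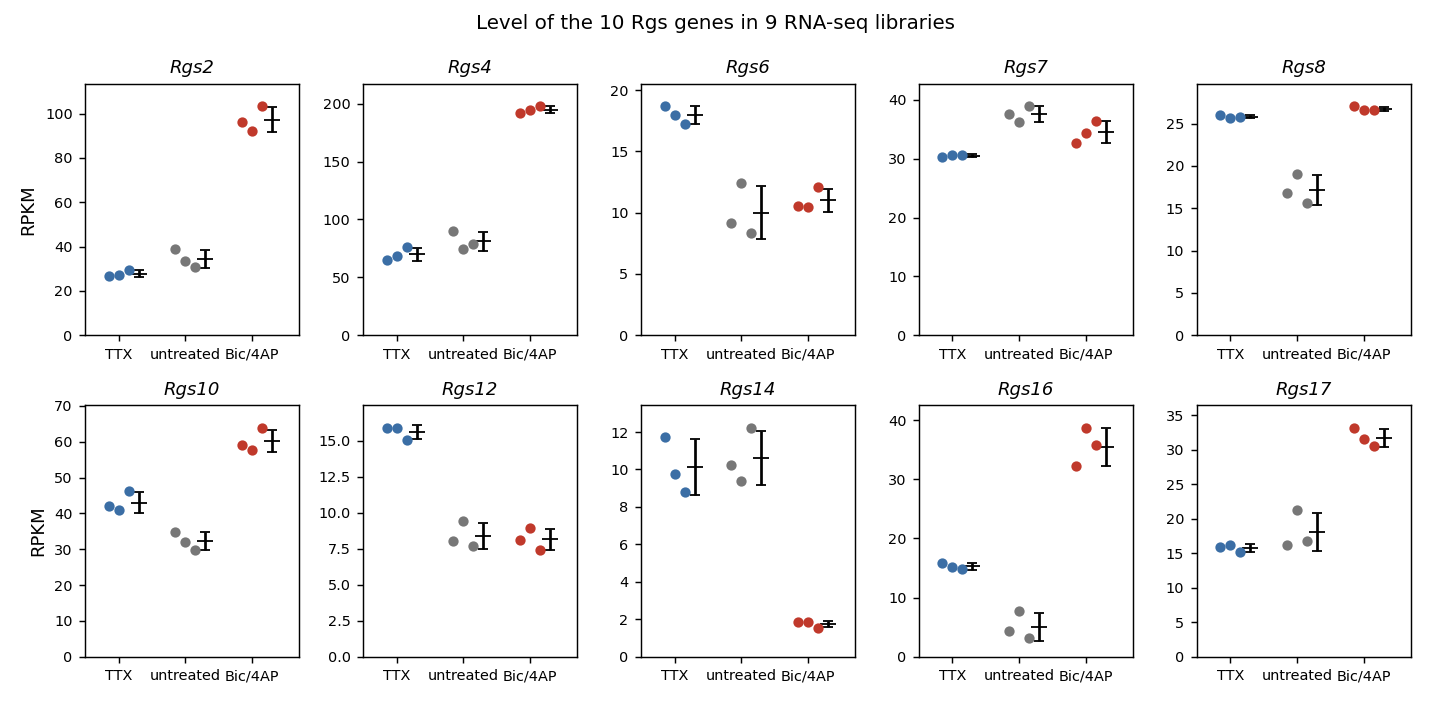
Expression level (RPKM, linear axis from 0) of each of the 10 genes in 9 RNA-seq libraries, coloured by treatment, with the mean and SD of 3 libraries as a black bar beside the points. Rgs2, Rgs4, Rgs10, Rgs16 and Rgs17 are highest in the 3 Bic/4AP libraries, and Rgs14 is at 1.57 to 1.88 RPKM there against 8.82 to 12.2 in the other libraries.

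Rgs2, Rgs4, Rgs8 and Rgs16 belong to the R4 subfamily, small proteins with little sequence outside the RGS domain. Rgs2 is known for its preference for Gq and as a gene induced by synaptic activity. Its level was 96.3, 92.3 and 103 RPKM with Bic/4AP, 38.7, 33.4 and 30.9 untreated and 26.7, 27.2 and 29.5 with TTX. The 3 groups were ordered without overlap, Bic/4AP above untreated above TTX. The Bic/4AP mean was 2.83 times the untreated mean, a relative log2 difference of 1.60 ± 0.08 (SE, limma adjusted p = 1.87e-08). Against TTX the difference was 2.10 ± 0.08 (adjusted p = 1.03e-08), and TTX was below untreated by a smaller amount (-0.42 ± 0.08, adjusted p = 0.00644). Rgs2 ranked above 99.1% of the genes of its level in Bic/4AP against untreated.

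Rgs4, which encodes a regulator of Gi and Gq signalling that is abundant in forebrain neurons, had the highest level per length of the 10 in every group. It was at 192, 195 and 198 RPKM with Bic/4AP, 90.4, 74.5 and 78.5 untreated and 65.1, 68.3 and 76.3 with TTX. The lowest Bic/4AP value was 2.12 times the highest untreated one, whereas the TTX and untreated values overlapped. The relative log2 difference was 1.38 ± 0.08 for Bic/4AP against untreated (limma adjusted p = 7.12e-08) and 1.80 ± 0.08 against TTX (adjusted p = 2.85e-08). Rgs4 rose under all 3 scalings, but its difference from untreated was 0.74 after quantile and 0.54 after cyclic loess normalization, and that from TTX 0.78 and 0.52. The small fall with TTX (-0.34 ± 0.08, adjusted p = 0.0375) was lost after quantile normalization (log2 difference -0.04), turned after loess (0.02) and turned in the pair of libraries nearest in depth (0.04). It was also lost without TTX library 1 or 2, or without untreated library 1 or 3. Rgs4 carried 0.74 to 0.82 reads per base with TTX, 0.45 to 0.74 untreated and 0.86 to 0.89 with Bic/4AP. Reads per base are not scaled by depth, which was lowest with Bic/4AP, so their spread cannot be set against that of RPKM. The log2 difference of Rgs4 between the deepest and the shallowest library was -0.23 within TTX, -0.28 within untreated and -0.02 within Bic/4AP.

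Rgs8, best known from cerebellar Purkinje cells, was higher with either agent than without. It was at 27, 26.6 and 26.6 RPKM with Bic/4AP, 26.0, 25.7 and 25.9 with TTX and 16.8, 19 and 15.6 untreated. The untreated libraries lay below all 6 others. Against untreated, the relative log2 difference was 0.74 ± 0.07 with Bic/4AP (limma adjusted p = 5.43e-06) and 0.44 ± 0.07 with TTX (adjusted p = 2.38e-05). Between Bic/4AP and TTX the call did not pass on the deposited scale (relative log2 difference 0.38, or 0.05 as deposited, adjusted p = 0.529). It was called higher with Bic/4AP after quantile (0.28) and loess normalization (0.37).

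Rgs16, whose product acts on Gi and Gq, had the largest rise of the 10. Its level was 32.2, 38.6 and 35.7 RPKM with Bic/4AP, 15.9, 15.1 and 14.9 with TTX and 4.33, 7.73 and 3.21 untreated. The 3 groups did not overlap, and the order was Bic/4AP, TTX, untreated. The relative log2 difference from untreated was 2.77 ± 0.20 with Bic/4AP (limma adjusted p = 2.37e-07) and 1.36 ± 0.20 with TTX (adjusted p = 5.7e-05), and Bic/4AP was above TTX by 1.49 ± 0.20 (adjusted p = 0.000186). The means stood at 6.98 and 3.00 times the untreated mean. The untreated values rested on 57, 180 and 43 reads, and the deepest untreated library gave the highest of the 3 values. Between the TTX and untreated libraries nearest in depth the log2 difference as deposited was 0.86, against 1.49 over all libraries.

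Rgs6 and Rgs7 are R7 members, which carry DEP and GGL domains and are stable as complexes with the beta subunit encoded by Gnb5. Rgs6 was at 18.7, 18 and 17.2 RPKM with TTX, 9.17, 12.4 and 8.35 untreated and 10.5, 10.4 and 12.1 with Bic/4AP. The TTX libraries lay above all others, while untreated and Bic/4AP values overlapped. The relative log2 difference of TTX from untreated was 0.67 ± 0.12 (limma adjusted p = 0.000149). The deepest untreated library, library 2, gave the highest of the 3 untreated values. In the pair of libraries nearest in depth, Rgs6 was at 17.2 RPKM with TTX (library 3) and 12.4 untreated (library 2). Bic/4AP against untreated did not pass (0.27 ± 0.12, adjusted p = 0.311), but was called higher after quantile (0.59) and loess normalization (0.55) and without untreated library 2 (0.30 as deposited). Bic/4AP was below TTX (-0.33 ± 0.12, adjusted p = 0.000368). Quantile normalization ended this call (-0.07) and loess turned its direction (0.07).

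Rgs7 was at 37.7, 36.2 and 38.9 RPKM untreated, 32.7, 34.3 and 36.4 with Bic/4AP and 30.3, 30.6 and 30.7 with TTX. TTX lay below both other groups, and untreated and Bic/4AP overlapped in 1 library. For TTX against untreated the relative log2 difference was -0.42 ± 0.05 (limma adjusted p = 0.000552). Bic/4AP against untreated did not pass (0.00 ± 0.05, or -0.12 as deposited, adjusted p = 0.0591). Quantile (-0.24) and loess (-0.26) normalization each gave a call in the lower direction, as did the fit without untreated library 2 (-0.15 as deposited) or Bic/4AP library 3 (-0.16). Bic/4AP was above TTX (0.50 ± 0.05, adjusted p = 0.0121), which was lost without Bic/4AP library 3 (0.13 as deposited).

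Of the genes encoding partners of the R7 proteins, Gnb5, Rgs7bp and the orphan receptor gene Gpr158 passed the filter. Rgs7bp, which encodes a membrane anchor of R7 complexes, was at 82.5 ± 2.45 RPKM with Bic/4AP, 51.9 ± 2.76 untreated and 40.4 ± 1.68 with TTX (SD, n = 3). It rose with Bic/4AP (relative log2 difference 0.78 ± 0.06, limma adjusted p = 6.75e-07) and fell with TTX (-0.48 ± 0.06, adjusted p = 0.000193). Its rise with Bic/4AP was 0.20 after quantile and 0.26 after loess normalization. Gnb5 was at 38.2 ± 1.55, 31.5 ± 1.68 and 36.3 ± 1.02 RPKM in the same order and rose with both agents (0.39 and 0.07), the TTX call being lost after loess normalization (0.08, adjusted p = 0.0996). Gpr158 passed in no comparison on the deposited scale, at 19.5 ± 1.95, 20.7 ± 1.55 and 21.4 ± 1.09 RPKM. It was called lower with TTX than untreated after quantile (-0.20) and loess normalization (-0.21), and higher with Bic/4AP than TTX (0.27 and 0.28). Rgs9bp and the receptor gene Gpr179 stayed under 1 RPKM in every library.

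Rgs10, Rgs12 and Rgs14 make up the R12 subfamily. Rgs10 is a short protein also known from microglia, and Rgs12 and Rgs14 are multidomain scaffolds that bind Ras-family GTPases and, through a GoLoco motif, inactive Gi. Rgs10 was at 59.1, 57.8 and 63.7 RPKM with Bic/4AP, 41.9, 40.9 and 46.3 with TTX and 34.9, 32.0 and 29.9 untreated. The 3 groups did not overlap. The relative log2 difference from untreated was 1.01 ± 0.07 with Bic/4AP (limma adjusted p = 3.43e-07) and 0.28 ± 0.07 with TTX (adjusted p = 0.000317). Bic/4AP was above TTX by 0.81 ± 0.07 (adjusted p = 5.03e-05), close to the median of 0.84 for genes of its level, and this was 0.18 after quantile and 0.26 after loess normalization. The difference of Bic/4AP from untreated was 0.58 and 0.61 under those scalings. Microglial markers, which mark a cell type rich in Rgs10, summed to 7.48 to 9.55 RPKM with Bic/4AP, 7.73 to 9.68 untreated and 9.12 to 11.9 with TTX. Of 5 microglial genes tested, 1 was called higher and 1 lower with Bic/4AP than untreated, where 29.6% of all genes rose and 42.5% fell.

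Rgs12 was at 15.9, 15.9 and 15.1 RPKM with TTX, 8.02, 9.44 and 7.69 untreated and 8.13, 8.91 and 7.41 with Bic/4AP. All TTX libraries lay above the other 6, which overlapped. TTX was above untreated by 0.70 ± 0.10 (limma adjusted p = 3.2e-05). Oligodendrocyte lineage markers moved with the TTX rises of Rgs6 and Rgs12. Of 6 such genes tested, 4 were called higher with TTX than untreated and 2 lower, where 40.6% of all genes rose and 23.5% fell. The median of these markers was 0.72, and their part in the rises of Rgs6 and Rgs12 was not tested. Bic/4AP against untreated did not pass (0.09 ± 0.10, or -0.03 as deposited, adjusted p = 0.773) and was called higher after quantile (0.51) and loess normalization (0.44). The fall against TTX (-0.53 ± 0.10, adjusted p = 8.74e-06) was lost under both (-0.16 and -0.06).

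Rgs14, known for its enrichment in pyramidal neurons of hippocampal area CA2 and for restraining synaptic plasticity there, was the member that fell with Bic/4AP. Its level was 1.88, 1.85 and 1.57 RPKM with Bic/4AP, 10.2, 9.36 and 12.2 untreated and 11.7, 9.77 and 8.82 with TTX. The Bic/4AP libraries lay far below the other 6, and TTX and untreated overlapped. The untreated mean was 6.01 times the Bic/4AP mean. The relative log2 difference from untreated was -1.94 ± 0.14 (limma adjusted p = 1.2e-07), and -1.67 ± 0.14 from TTX (adjusted p = 1.41e-07). The Bic/4AP values rested on 20, 20 and 16 reads, against 136 to 220 untreated. Among genes of its level, 9.19% had a lower difference than Rgs14 in Bic/4AP against untreated. After quantile and loess normalization the difference was -1.61 and -1.54. TTX against untreated did not pass (-0.19 ± 0.14, adjusted p = 0.711) and was called lower after loess normalization alone (-0.38).

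Rgs17, of the RZ subfamily, encodes a protein with a cysteine string that is palmitoylated and is known to act on Gz and Gi downstream of opioid receptors. It was at 33.1, 31.5 and 30.5 RPKM with Bic/4AP, 16.2, 21.3 and 16.7 untreated and 15.9, 16.2 and 15.1 with TTX. The Bic/4AP libraries lay above all others, whereas TTX and untreated overlapped. Bic/4AP was above untreated by 0.91 ± 0.09 (limma adjusted p = 7.71e-06) and above TTX by 1.30 ± 0.09 (adjusted p = 1.15e-06). TTX against untreated did not pass (-0.31 ± 0.09, adjusted p = 0.104), but quantile (-0.47) and loess (-0.43) normalization each gave a call in the lower direction, as did the fit without untreated library 1 (-0.25 as deposited).

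**Figure D2:**
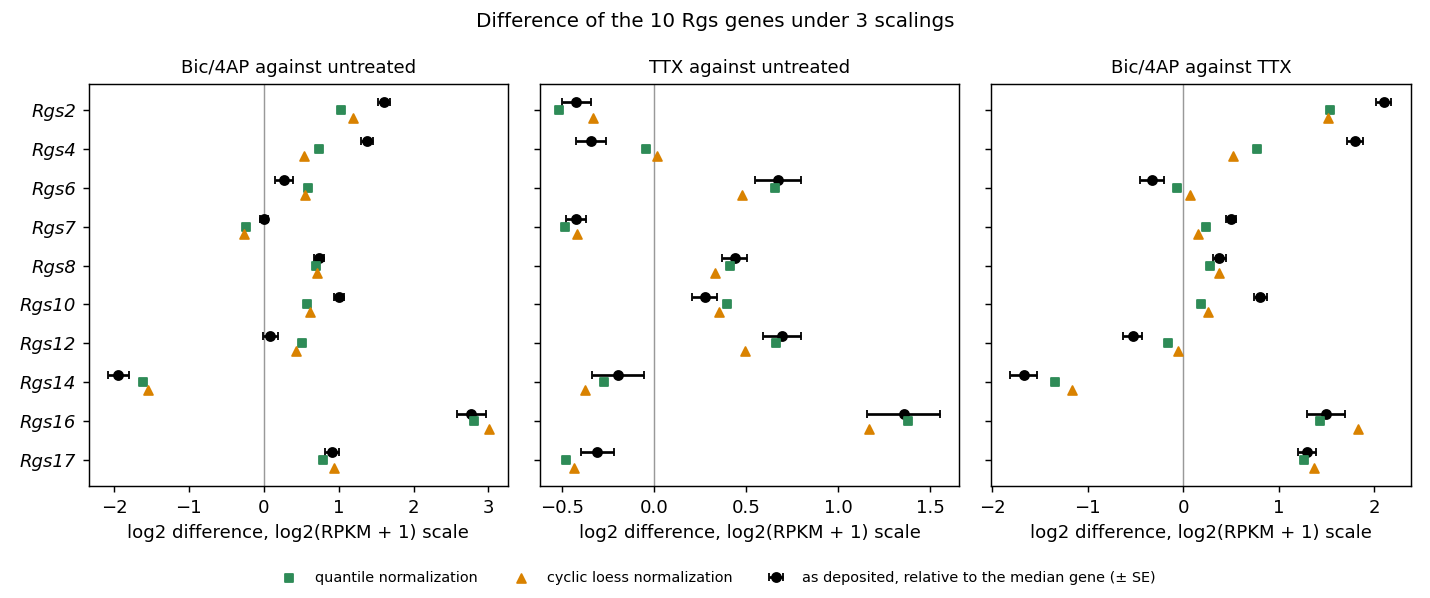
Log2 difference of each gene (horizontal axis, log2(RPKM + 1) scale) in the 3 comparisons: values as deposited, less the median of all genes (black, with limma's SE) and after quantile (green) or cyclic loess normalization (orange). In Bic/4AP against untreated, the 6 genes called higher and Rgs14 keep their side under all 3 scalings, with Rgs4 moving from 1.38 to 0.54. Rgs7 moves from 0.00 to -0.26.

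Of 11 other Rgs genes in the tables, 8 passed the filter. With Bic/4AP, Rgs20, an RZ member, rose to 11.8 ± 1.08 RPKM from 5.38 ± 0.547 untreated, and Rgs13, an R4 member, to 9.36 ± 1.13 from 5.78 ± 0.152 (relative log2 differences 1.13 and 0.73, limma adjusted p = 5.67e-06 and 0.000592). The R7 genes Rgs9 and Rgs11 fell. Rgs9, known from striatum and photoreceptors, was at 1.49 ± 0.189 RPKM with Bic/4AP, 4.78 ± 0.526 untreated and 2.75 ± 0.201 with TTX. Rgs11 was at 3.33 ± 0.846 RPKM with Bic/4AP, 29.1 ± 6.03 untreated and 7.33 ± 1.19 with TTX, so that it fell against untreated with both agents (-2.67 ± 0.17 and -1.97 ± 0.17, adjusted p = 6.03e-08 and 5.33e-06). Its high values were in the libraries with the high choroid plexus marker sum, and the part of those cells in its level was not tested.

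The remaining genes of the family changed less or were near the filter. Rgs19, of the RZ subfamily, rose with TTX, at 25.2 ± 0.662 RPKM against 16.2 ± 3.33 untreated (0.50 ± 0.13, limma adjusted p = 0.00119), and was at 17.5 ± 2.81 with Bic/4AP. Rgs20 also rose with TTX, to 7.85 ± 0.157 RPKM, and Rgs13 fell to 4.44 ± 0.017. The Rgs20 call was lost after loess normalization (0.15). Rgs5, known from pericytes, and Rgs3 and Rgs1 passed in neither comparison with untreated, with means of 7.97 to 11.9, 2.99 to 4.36 and 0.582 to 1.23 RPKM over the groups. These calls depended on the scaling: with Bic/4AP against untreated, 6 of the 8 tested genes were called higher and 2 lower after quantile and after loess normalization, against 2 and 2 as deposited. Under both, Rgs1 (1.05 and 0.91), Rgs3 (0.56 and 0.37), Rgs5 (0.47 and 0.53) and Rgs19 (0.34 and 0.31) were called higher. With TTX, Rgs5 was called lower under both (-0.64 and -0.76), and Rgs3 higher after quantile normalization (0.33). Rgs22 reached at most 0.425 RPKM, Rgs18 was above 0 in 1 untreated library, and Rgs21 was listed at 0 in all 9.

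The genes that RGS proteins act with were described by lists of G protein subunits, effectors, receptors and other modulators. With Bic/4AP against untreated, where 29.6% of all genes rose and 42.5% fell, 8 of 12 alpha subunit genes rose and 0 fell, and 12 of 13 beta and gamma subunit genes rose and 0 fell, with medians of 0.48 and 0.67 relative to all genes. The neuron markers moved with them (10 of 11 higher, median 0.72), and their part in these counts was not tested. These counts were 6 up and 1 down for alpha after quantile as well as loess normalization, and 7 up with 2 or 3 down for beta and gamma. Gnai1, which encodes an alpha subunit of Gi, was at 102 ± 1.83 RPKM against 68.2 ± 5.49 untreated, and Gng3, a gamma subunit gene of neurons, at 74.4 ± 1.29 against 43.3 ± 3.29. Gnal, encoding the olfactory and striatal relative of Gs alpha, was at 72.5 ± 1.45 against 49.6 ± 1.58. With TTX, where 40.6% of all genes rose and 23.5% fell, 4 of 12 alpha genes rose and 3 fell. Gnai2 and Gna11 were among the first and Gnaq and Gnao1 among the second. After quantile as well as loess normalization, 5 alpha genes were called higher and 5 lower with TTX. Gnaq, which encodes the alpha subunit of Gq, was at 46.6 ± 1.86 RPKM with TTX, 56.3 ± 3.90 untreated and 69.6 ± 0.189 with Bic/4AP. Gng13 was highest with TTX, at 18.1 ± 1.4 RPKM against 6.70 ± 0.618 untreated.

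Of 13 adenylyl cyclase, phospholipase C beta and potassium channel genes, 1 rose and 8 fell with Bic/4AP against untreated (2 and 7 after quantile, 1 and 7 after loess normalization). Their median was -0.24 relative to all genes, of which 42.5% fell. Adcy6, a calcium-inhibited adenylyl cyclase gene, was at 3.48 ± 0.193 RPKM against 18.2 ± 1.71, and Kcnj9, which encodes a G protein-gated potassium channel subunit, at 2.0 ± 0.454 against 20.4 ± 3.6. Kcnj3, another subunit of these channels, was the effector that rose, at 63.0 ± 1.99 against 47.6 ± 1.64, a call lost after quantile (0.02) and loess normalization (0.07). Of 30 receptor genes coupled to Gi or Gq, 13 rose and 11 fell (17 and 9 after quantile, 17 and 10 after loess normalization). The somatostatin receptor genes Sstr1 and Sstr4 went opposite ways, Sstr1 to 52.7 ± 0.240 RPKM from 17.6 ± 3.29 and Sstr4 to 3.42 ± 0.481 from 11 ± 1.11. Npy1r, a neuropeptide Y receptor gene, rose to 40.2 ± 1.68 from 20.7 ± 3.00 and Chrm1, a muscarinic receptor gene, fell to 12.3 ± 0.709 from 21.3 ± 1.49. Of 7 receptor kinase and arrestin genes 2 rose and 5 fell (1 and 5 under both normalizations), Grk6 to 14.3 ± 0.682 RPKM from 24.0 ± 0.831. Among 8 other modulators Rasd1, a dexamethasone-induced Ras-like gene, rose to 6.08 ± 0.779 RPKM from 1.13 ± 0.218, and 4 fell, Rap1gap and Axin1 among them. For these modulators the counts were 4 higher and 3 lower after quantile and 3 and 3 after loess normalization.

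**Figure D3:**
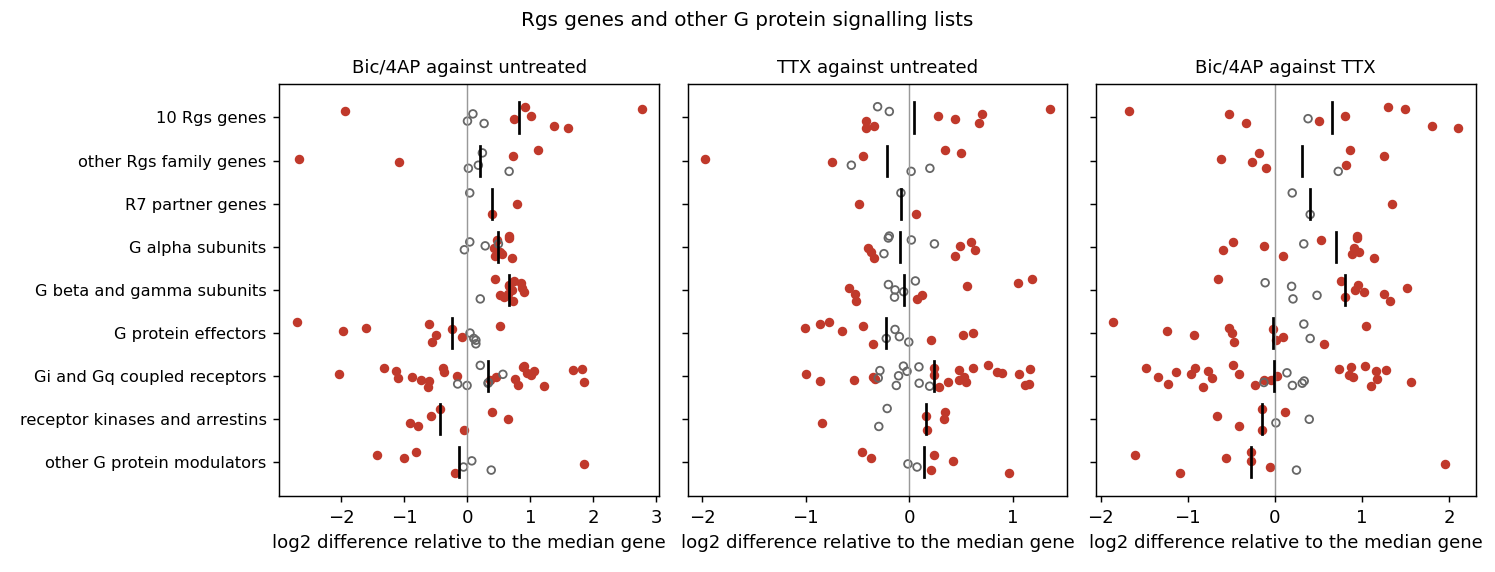
Log2 difference of single genes relative to the median gene (horizontal axis), by list, in the 3 comparisons. Filled points passed limma's test on the deposited scale, open points did not, and the black bar is the median of the list, which is 0.83 for the 10 Rgs genes and 0.67 for beta and gamma subunits in Bic/4AP against untreated.

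H3K27ac peaks were compared within each of the deposits, because the lists differ in size: 4846 untreated and 7721 Bic/4AP peaks in the first, covering 2.37 and 7.77 Mb, and 49701 and 55035 peaks in the later one, covering 71.6 and 86.3 Mb. A locus was the gene body with 2 kb either side of each RefSeq start (for Rgs14 the gene body alone), and scores are the authors' own. By the rule that a locus gains a peak when both Bic/4AP lists and neither untreated list hold one, 0 of the 10 loci gained and 0 lost a peak, where 2.42% of 17493 genes gained and 0.12% lost one. Of the 10 loci, 8 held a peak in at least 1 list. Rgs16 and Rgs17, which rose in RNA, had none, as did 50.1% of all genes and 15.2% of the genes at 10 RPKM or more on average. Outside this window, the later Bic/4AP list alone held a peak upstream of Rgs16, from -3.69 to -2.34 kb of its start (score 166). Peaks were listed per sample, and 1 sample per deposit and treatment gives no replicate check within a deposit.

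At the start of Rgs2 the later untreated list held 1 peak of 0.575 kb (chr1:144003456-144004031, score 99.6) and the later Bic/4AP list 1 peak of 5.15 kb (chr1:144000196-144005342, score 1815). The first Bic/4AP list held a peak of 2.17 kb there (chr1:144002025-144004199, score 111) and the first untreated list none. The later Bic/4AP peak thus reached over most of the 4.81 kb gene and over the promoter printed above. The first Bic/4AP peak ran only from -0.05 to 2.12 kb of the start, and the later untreated peak began 0.118 kb inside the gene. At Rgs4 the untreated peaks of the later deposit covered 3.71 kb, the higher one with a score of 792 (chr1:169745704-169748595), and those of Bic/4AP 5.97 kb, with a score of 2794 (chr1:169744610-169750141). The first deposit had a peak of 1.56 kb at this start with Bic/4AP and none untreated. At both genes, which rose in RNA, peaks of the later deposit were wider with Bic/4AP, and in the first deposit the Bic/4AP list alone held a peak.

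Rgs7 and Rgs8 differed most in covered sequence. Over the 434 kb of Rgs7, 9 peaks of 13.4 kb in the later untreated list stood against 71 peaks of 112 kb with Bic/4AP. In 4 places inside Rgs7, at 87.3, 144, 364 and 394 kb from the start, both Bic/4AP lists and neither untreated list held a peak, the last of them 5.13 kb wide in the later list (chr1:175095945-175101073, score 2764). Rgs7 was the 1 locus of the 10 with such a site, which 4.06% of all genes and 13.9% of the 425 genes of 300 kb or more had. Rgs6 was the other member of that length. The length was chosen after the site at Rgs7 had been seen. Its start peak was present in all 4 lists, at 0.229 and 1.43 kb untreated and 1.54 and 3.24 kb with Bic/4AP. Its RNA did not pass the test in Bic/4AP against untreated. Over Rgs8, 4 peaks of 2.03 kb stood against 15 of 23.1 kb in the later lists, the widest of 7.83 kb (chr1:153668815-153676647, score 1689), and the first deposit had none.

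**Figure D4:**
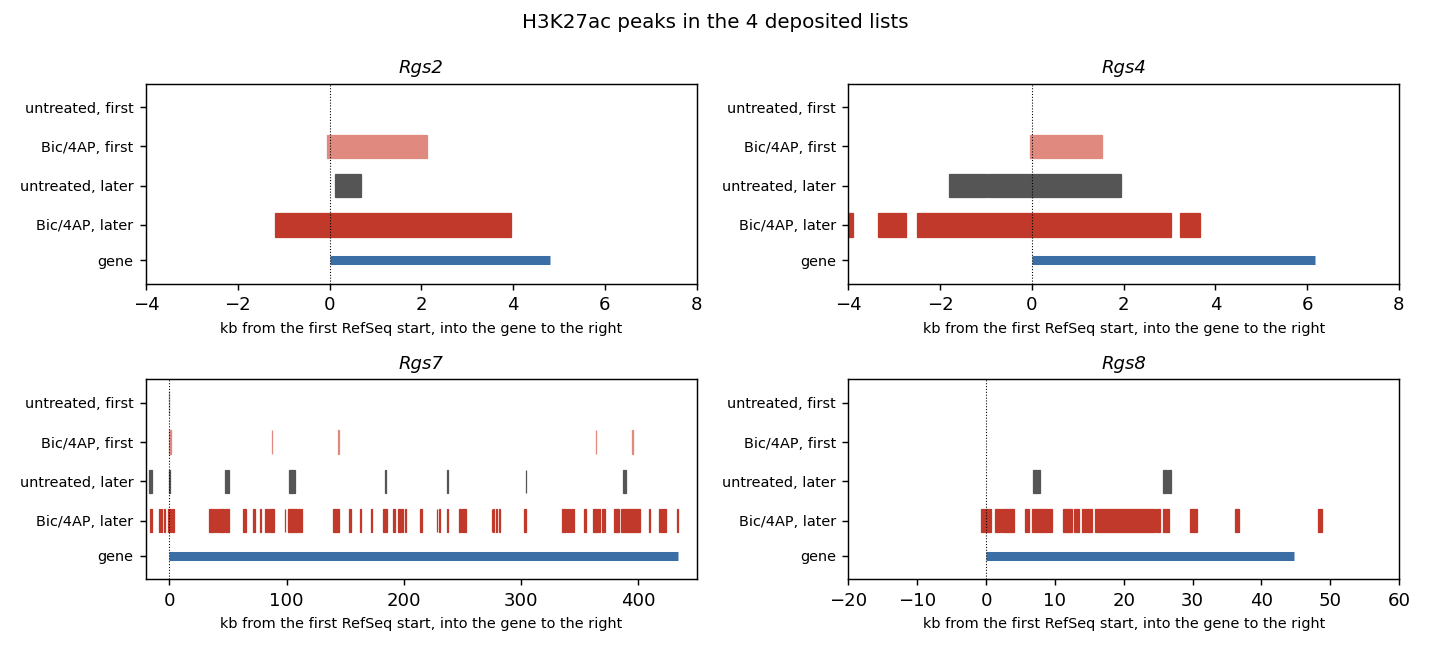
H3K27ac peaks of the 4 deposited lists at Rgs2, Rgs4, Rgs7 and Rgs8, by distance in kb from the first RefSeq start (dotted line), with the gene as a blue bar; each peak is outlined with a thin line of fixed width so that narrow peaks remain visible. The later Bic/4AP peak at Rgs2 is 5.15 kb wide against 0.575 kb untreated, and Rgs7 holds 71 later Bic/4AP peaks against 9 untreated.

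Apart from Rgs6, the other loci held fewer peaks than Rgs7 and Rgs8 in the later lists. Rgs10 had 1 peak in the later Bic/4AP list (chr7:128418726-128420497, score 332) and none in the others. The peak lay just upstream of the start used for the promoter and reached over the outer 5′ end of the annotated gene, at chr7:128419506. Of all genes, 9.62% had a peak in the later Bic/4AP list and not in the later untreated one. Rgs12 had no peak at its first start in any list; an internal site near chr5:34988476-34989475 was in 3 of the 4 lists and covered 2.35 kb of peaks with Bic/4AP against 0.845 kb untreated. Rgs6, the other long gene beside Rgs7 among the members, had 31 peaks of 52.5 kb untreated and 21 of 35.7 kb with Bic/4AP in the later lists. The highest score at its start was 105 untreated and 911 with Bic/4AP. Rgs14 had 2 peaks untreated, of 1.16 kb together and with scores of 67.6 and 72.8, close to the lowest score of 50 in the lists, and none with Bic/4AP, the reverse pattern, which 4.2% of all genes had in the later deposit.

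Covered bases were at least 2 times higher with Bic/4AP at 5 of the 10 loci in the later deposit (Rgs2, Rgs7, Rgs8, Rgs10 and Rgs12), where 20.5% of all genes and 36.4% of genes at 10 RPKM or more were. They were at least 2 times higher untreated at 1 locus, Rgs14, against 7.21% of all genes. In the first deposit a peak was in the Bic/4AP list alone at 4 loci (Rgs2, Rgs4, Rgs6 and Rgs12), where 14% of genes had this, and at 0 loci in the untreated list alone, against 2.13%. These counts were defined after the peaks at these loci had been looked at. H3K4me1 peaks of the untreated samples were found at 4 of the 10 loci, where 22.7% of all genes had one in at least 1 list: Rgs6 (7 in each list), Rgs7 (6 and 3), and Rgs4 and Rgs12 (1 each in the second list). None of them lay within 2 kb of a start.

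**Figure D5:**
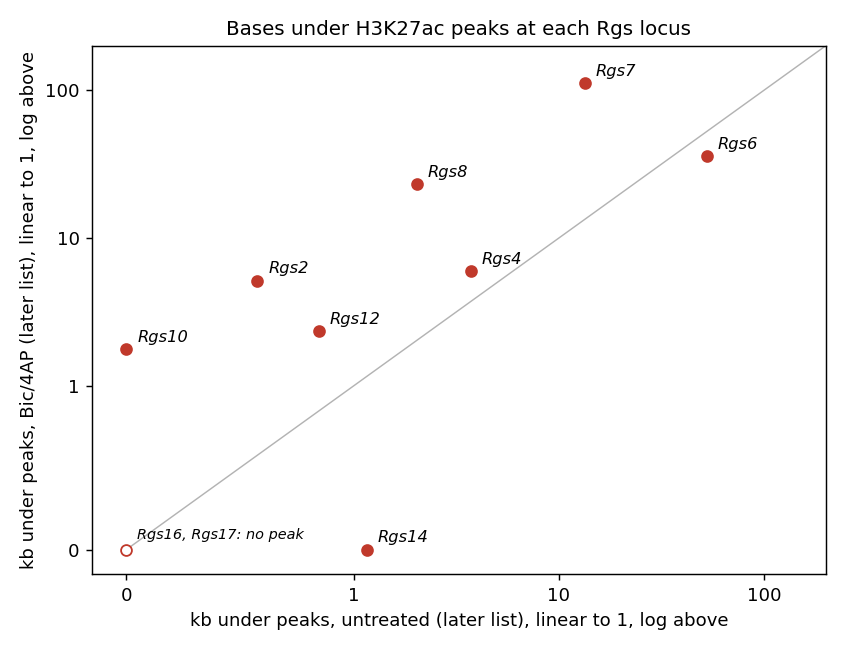
Bases under H3K27ac peaks at each locus in the later deposit, untreated (horizontal) against Bic/4AP (vertical), in kb on axes that are linear to 1 and logarithmic above, with the line of equal coverage in grey. Of the 10 loci, 6 lie above the line, Rgs6 (52.5 and 35.7 kb) and Rgs14 (1.16 and 0 kb) lie below it, and Rgs16 and Rgs17 held no peak.

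CpG methylation was read from 1 library per treatment, so it has no replicate check, and the coverage behind the fractions is unknown. Rgs14 had no start in the promoter table, so no start window was read for it. Around the first start of each other member (500 bases either side) the fraction was low in every library. It was 0.0112, 0.00926 and 0.00325 at Rgs2 with TTX, untreated and with Bic/4AP, 0.114, 0.0715 and 0.0883 at Rgs4, and 0.149, 0.146 and 0.131 at Rgs8. It was 0.0646, 0.0529 and 0.0537 at Rgs16, and under 0.02 at Rgs6, Rgs7, Rgs10, Rgs12 and Rgs17. The widest range over the libraries at a first start was 0.0420, at Rgs4, where the median range over all start windows was 0.0189 and the 90th percentile 0.0806. The second start of Rgs12 was methylated, at 0.834, 0.766 and 0.820 over 8 CpGs.

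Over gene bodies the fraction differed between genes and hardly between libraries. The untreated value ran from 0.528 in Rgs16 and 0.571 in Rgs2 to 0.787 in Rgs6 and 0.788 in Rgs7, against a median of 0.699 over 18720 genes. No body differed by more than 0.0206 between libraries, the widest range being that of Rgs16. Under the wide Bic/4AP peak of Rgs2 the fraction was 0.274 with TTX, 0.283 untreated and 0.271 with Bic/4AP over 103 CpGs. Under the Bic/4AP peaks of Rgs7 it was 0.673, 0.677 and 0.678 over 615 CpGs, and under those of its untreated list 0.257, 0.248 and 0.253 over 157 CpGs. The peaks of Rgs12 lay in methylated sequence, at 0.843, 0.860 and 0.822.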

How the data were processed

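The members, gene lists and tests were chosen with earlier results of these data known. Per the labels' protocols, poly(A) RNA was selected on beads, and the NEBNext Ultra Directional kit, which marks strand, was used. The deposited expression values are RPKM, 1 per gene and library; strand use in counting and treatment of duplicate reads are not given in the sources used here. Overlapping and antisense genes therefore cannot be told apart. The mm10 build, TopHat, Bowtie2 2.2.4, SAMtools 0.1.19 and MACS 1.4.1 are named per the submitters' processing notes. The deposited methylation values are a fraction per CpG, without coverage, from bisulfite libraries made by post-bisulfite adaptor tagging per the labels. The deposited peak lists give the authors' score per peak, per sample.

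Low RPKM values stepped by what 1 read is worth, and read numbers were recovered for 19592 of 19592 genes (tolerance 0.15 read). Of 24062 lines, 4 with a repeated name were left out, and 27 names read as dates. limma 3.58.1 (R 4.3.3) with an intensity trend was fitted on log2(RPKM + 1) over all 9 libraries for 14801 genes (3 or more libraries with at least 1 RPKM), with Benjamini-Hochberg adjustment and a threshold of 0.05. The fit was tested on simulated data. Pseudocount, filter, quantile and cyclic loess normalization, a replicate block, fits of 2 groups and leaving out each library were alternatives. The pair of libraries nearest in depth (TTX library 3, untreated library 2) and covered bases per locus were added after seeing the data. Named genes were all members, other Rgs genes and R7 partners, up to 2 per list, direction and comparison with the smallest adjusted p, Fos, Arc and, per member, the 3 genes most correlated over the libraries. Gene positions and promoters come from RefSeq tables of GRCm38.p6, the assembly of mm10; the promoter table used here matched 9 of the 10 members, and Rgs14 is described by its gene body. Peak positions are as deposited. Methylation means use CpGs listed in all 3 libraries. The input sample was not analysed here.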

Additional observations from a re-analysis of the deposited data

How the results depend on the processing

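Leaving out single libraries left the direction of a called value and the call unchanged for 171 of 180 member results. Other settings left 163 of 190 member results unchanged. The pair of libraries nearest in depth, counted among these settings, gives no call. For it, unchanged meant the same direction and a shift within 1 SD of the untreated libraries. Values not called could cross 0, as Rgs12 in Bic/4AP against untreated (-0.09 to 0.04) and Rgs14 in TTX against untreated (-0.17 to 0.03) did without 1 library. Values in this section are as deposited unless a normalization is named. In Bic/4AP against untreated, Rgs12 turned from a value below 0 (not called) to 0.51 after quantile and 0.44 after loess normalization. In TTX against untreated, Rgs4 turned to 0.017 after loess normalization and to 0.035 in the pair of libraries nearest in depth. In Bic/4AP against TTX, Rgs6 turned to 0.070 after loess. The number of genes lower with TTX than untreated was 5241 after loess normalization, against 3483. Without 1 library at a time, genes higher and lower ran from 3957 to 4917 and from 5964 to 6313 for Bic/4AP against untreated, from 5222 to 6550 and from 2994 to 3558 for TTX against untreated, and from 3226 to 3399 and from 7290 to 7689 for Bic/4AP against TTX. A split of all genes after quantile normalization was 5741 higher and 4568 lower, 5521 and 4724, and 4986 and 5351 in the same order, and after loess 5300 and 5174, 4553 and 5241, and 5134 and 5290. The replicate block changed none of 30 member calls; with the block 4359 genes were higher and 6257 lower in Bic/4AP against untreated. The 9 pairs of libraries with the same number had correlations of deviations from -0.17 to 0.04, none over 0.1. Of 18 pairs with other numbers, 2 were over 0.1. With 3 libraries per group such correlations cannot decide whether libraries of the same number share a culture or batch. For peaks, 1 locus, Rgs2, counted as gained when only peaks with a score of 100 or more were used, since its later untreated peak scored 99.6. Loci with a later Bic/4AP peak and no later untreated peak numbered 2 with 20 kb either side, with the promoter alone and with a score of 100 or more, against 1. Loci with a first-deposit Bic/4AP peak alone numbered 2 with the promoter alone and 2 with a score of 100 or more, against 4. With 1000 bases either side of the first starts the mean methylation of 9 members was 0.10 with TTX, 0.0955 untreated and 0.0960 with Bic/4AP, against 0.0426, 0.0376 and 0.0365 with 500 bases. The cause of these shifts was not tested. Depth limits Rgs14 with Bic/4AP (16 to 20 reads) and Rgs16 untreated (43 to 180 reads).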

Other observations

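The genes whose levels were most like those of each member over the 9 libraries, named with Pearson's r and no p because the libraries fall into 3 treatment groups, were as follows. For Rgs2 they were Ube2j1, Cpd and Gnal (r = 0.998, 0.997 and 0.997), and for Rgs4 Tmeff1, Slc1a2 and Eif4a1 (0.998, 0.998 and 0.997). For Rgs14 they were Acaa1a, Hemk1 and Aldh7a1 (0.999, 0.998 and 0.998), for Rgs16 Camk2n2, Rtn4rl2 and Gm5523 (0.996, 0.995 and 0.994), and for Rgs17 Taf9b, Rps6ka3 and Nr2f2 (0.994, 0.993 and 0.993). For Rgs6 they were Rxfp3, Kcnk2 and 6430573F11Rik (0.996, 0.995 and 0.992), for Rgs7 Srsf11, Cab39l and Erdr1 (0.982, 0.979 and 0.973), for Rgs8 Ccdc184, Samd4b and Ciapin1 (0.997, 0.995 and 0.995), for Rgs10 Tubb4a, Cdip1 and Hnrnph2 (0.994, 0.994 and 0.991), and for Rgs12 Fgd1, Fam131b and Tspan9 (0.997, 0.996 and 0.995).

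In Bic/4AP against TTX, Cnr1, the cannabinoid receptor gene, was at 97.0 ± 2.01 against 53.8 ± 3.30 RPKM (relative log2 difference 1.17, limma adjusted p = 1.87e-07; 0.29 after quantile and 0.24 after loess normalization), and the muscarinic receptor gene Chrm1 at 12.3 ± 0.709 against 28.7 ± 0.863 (-0.83, adjusted p = 4.11e-08). With TTX against untreated, Chrm4, another muscarinic receptor gene, was at 18.7 ± 1.05 against 7.39 ± 1.59 RPKM (relative log2 difference 1.12, adjusted p = 5.23e-06) and Gpsm1, which encodes a GoLoco protein, at 17.8 ± 0.452 against 7.85 ± 1.19 (0.96, adjusted p = 8.81e-06). Adcy9, an adenylyl cyclase gene, was at 13.5 ± 1.04 with TTX against 25.7 ± 2.55 untreated (-1.01, adjusted p = 8.68e-06) and at 7.0 ± 0.304 with Bic/4AP.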
